A study of Drosophila melanogaster with 6 samples.

Results

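The genes that specify the mesoderm of the fly embryo and start muscle development were examined in embryos without FoxL1, a forkhead transcription factor. The set named 7 genes, and 5 of them, twi, sna, zfh1, Him and nau, had a probe set naming no other gene on the Affymetrix Drosophila Genome 2.0 array, with 1 probe set each, among 11982 genes measured in this way. The other 2, Mef2 and how, had no probe set assigned to them alone in the annotation used and were not analysed here. Total RNA came from whole Drosophila melanogaster embryos of genotype foxLCr/foxL1del, called foxL1 null below, and from Oregon R wild-type embryos, both labelled as stages 11 to 15. Each genotype had 3 arrays, described by the submitters as independent biological samples. The protocol names foxL1del/foxL1cr flies as the source of the null embryos, and has eggs of both genotypes laid over 8 h and kept another 11 h before harvest, which seems to run past the stages on the labels. The genotypes came from separate lines, so loss of FoxL1 and line background cannot be told apart.

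In Drosophila the mesoderm forms from the ventral cells of the blastoderm, which fold inwards at gastrulation. The Dorsal protein switches on twi and sna in these cells. Twist, a basic helix-loop-helix (bHLH) activator, turns on mesodermal genes, and Snail, a zinc finger repressor, keeps neuroectodermal genes off. Later the mesoderm divides into heart, gut muscle, fat body and body wall muscle. Twist then remains in the precursors of adult muscle, and Snail returns in neural stem cells of the nervous system. The zinc finger homeodomain protein Zfh1 and the nuclear protein Him are present in mesoderm that has not yet differentiated, where Him holds back the muscle differentiation factor Mef2. The gene nau (nautilus) encodes the only fly relative of the vertebrate muscle factor MyoD and acts in a subset of muscle founder cells.

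Values are log2 signals from robust multi-array averaging, so a difference of 1 is a 2-fold change, and a gene was called changed when limma's p-value was under 0.05 after Benjamini-Hochberg adjustment across 18769 probe sets. Across probe sets, Pearson's r was 0.987 to 0.993 among null arrays, 0.990 to 0.995 among wild-type arrays and 0.980 to 0.989 between arrays of different genotype. Null array 3 had the lowest array weight, 0.317, and stood apart in the 3' minus 5' difference of the control transcripts, which reflects RNA integrity. It was the lowest of the 6 for actin (0.20, against 0.67 to 0.82 on the other arrays) and eIF-4a (0.71, against 0.88 to 0.93) and the highest for GAPDH (0.62, against 0.43 to 0.53). The FoxL1 probe set was lower in null embryos by the test, at 3.98 ± 0.54, against 5.00 ± 0.14 in the wild type (SD, n = 3 each; limma adjusted p = 0.0489), a call lost on leaving out null array 1 or any wild-type array (adjusted p of up to 0.155) and under both other scalings (0.0761 and 0.0641). As for the tissue, muscle structural genes were well measured in both genotypes. The myosin light chain gene Mlc1, for example, read 11.77 to 12.28 in null embryos and 11.93 to 12.30 in the wild type.

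None of the 5 measured determinants was called changed in foxL1 null embryos by limma, 0 lower and 0 higher, with 2 at an unadjusted p under 0.05. Over all probe sets 3.12% were called lower, 4.73% higher and thus 7.84% in either direction, and 21.5% had an unadjusted p under 0.05. With 1 probe set per gene, as for the determinants, 4.00% were called lower and 6.24% higher. Of these 11982 genes, 3244 had an unadjusted p under 0.05. All 5 read lower on average in the null embryos, by 0.11 to 0.75 on the log2 scale, with a median of -0.16. Of all genes 60.0% read lower, with a median of -0.07. The sign of zfh1 turned when each array was centred on its own median, which moved the median of all genes to 0.05. The values per array show the null below the wild type for twi and nau, and mixed arrays for sna, zfh1 and Him.

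**Figure D1:**
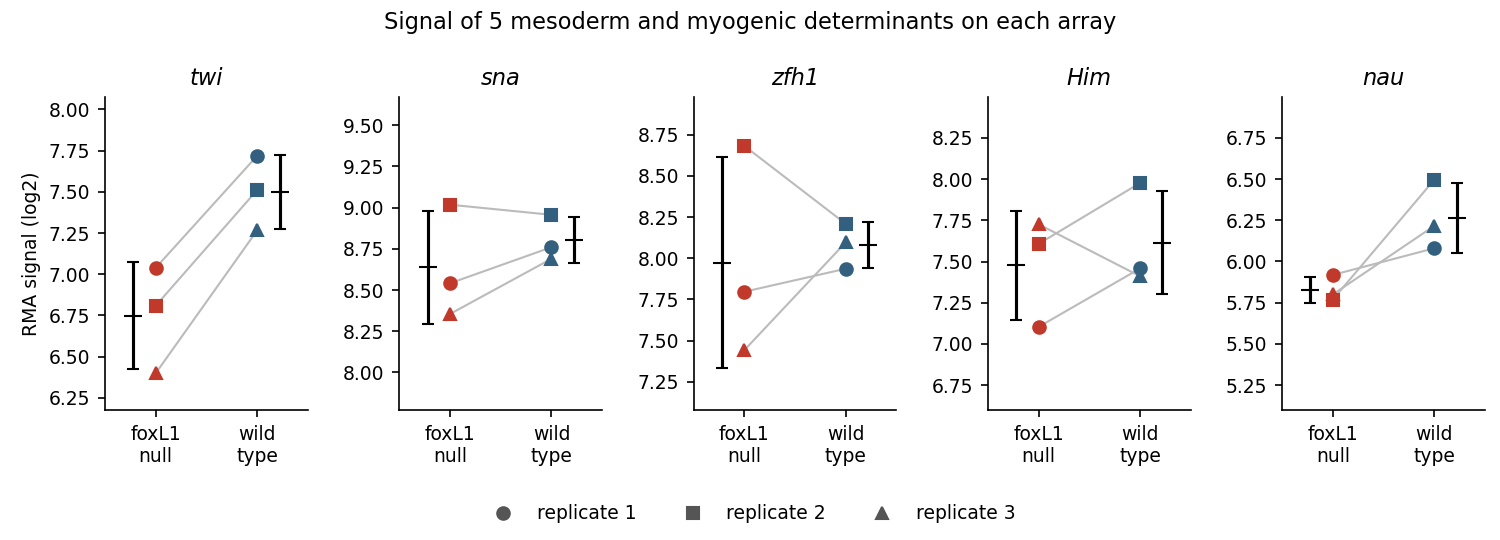
RMA signal (log2) of twi, sna, zfh1, Him and nau on each of 3 foxL1 null (red, left) and 3 wild-type (blue, right) arrays, with the replicate number as the symbol, lines joining arrays of the same number, and black bars for mean ± SD. Each panel spans the same log2 range around its own centre. For twi and nau no null array reaches the wild-type arrays, and for sna, zfh1 and Him the groups overlap.

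The gene twi showed the greatest difference of the 5. Its signal was 7.04, 6.81 and 6.40 in the null embryos, against 7.72, 7.51 and 7.27 in the wild type. Every null array lay below every wild-type array. Array 3 was the lowest in each genotype, as it was for 19.2% of all genes. The means were 6.75 ± 0.32 in null and 7.499 ± 0.23 in wild-type embryos (SD, n = 3 each), 1.68-fold lower in null embryos (log2 difference -0.75, SE 0.19, 95% interval -1.19 to -0.31), just short of the threshold (limma adjusted p = 0.0528). In whole embryos, fewer cells with a transcript and less transcript per cell cannot be told apart.

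Within replicate numbers twi differed by a similar amount each time, -0.68, -0.70 and -0.87 for arrays 1, 2 and 3. The reported fit has no block. Across all probe sets, deviations from the group mean correlated at 0.108, 0.544 and 0.224 between arrays numbered 1, 2 and 3. Null array 3 correlated more with wild-type array 1 (0.266). With the replicate number as a block twi passed the test (limma adjusted p = 0.00442). It also passed after another quantile normalization (0.0446), with a trended and robust prior (0.0495) and when probe sets in the lowest 25% of signal were left out (0.0486). It stayed short of the threshold without any single array (adjusted p from 0.0535 to 0.174), with array weights (0.0794) and after centring each array on its median (0.0717). The call for twi therefore depended on the setting, while its difference was negative under all 12 alternatives, from -0.89 to -0.52.

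The other founding gene of the mesoderm, sna, did not differ detectably. It read 8.54, 9.02 and 8.35 in the null embryos, against 8.76, 8.96 and 8.69 in the wild type. Null array 2 lay above all wild-type arrays and null arrays 1 and 3 below them. The difference was -0.16 (SE 0.18, 95% interval -0.58 to 0.25, limma adjusted p = 0.671), an interval that holds changes between 1.49-fold lower and 1.19-fold higher in null embryos. Without null array 2 the difference was -0.35 (adjusted p = 0.182), and without null array 3 it was -0.02 (adjusted p = 0.961).

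For the factors of undifferentiated mesoderm, null embryos varied more among themselves than they differed from the wild type. The gene zfh1 read 7.80, 8.68 and 7.44 in the null embryos, against 7.94, 8.21 and 8.10 in the wild type. Null array 2 was the highest of the 6 and null array 3 the lowest. The null arrays thus spanned 2.36-fold, and the wild-type arrays 1.21-fold. The difference was -0.11 (SE 0.29, 95% interval -0.77 to 0.56, limma adjusted p = 0.877). Its sign depended on single arrays, being 0.16 without null array 3 and -0.46 without null array 2 (adjusted p = 0.790 and 0.132).

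Him read 7.10, 7.61 and 7.73 in the null embryos, against 7.46, 7.98 and 7.41 in the wild type. The null group held the lowest array and the wild type the highest, and the rest were interleaved. The difference was -0.14 (SE 0.21, 95% interval -0.62 to 0.35, limma adjusted p = 0.778). Without wild-type array 2 or null array 1 it was 0.044 or 0.052. Unlike the other 4 genes, Him had its highest null value on array 3, the array with the lowest weight.

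The MyoD relative nau was the second gene whose groups did not overlap. Its signal was 5.92, 5.77 and 5.80 in the null embryos, against 6.08, 6.496 and 6.22 in the wild type. The null arrays lay within 0.15 of each other, and all were below the lowest wild-type array. The means were 5.83 ± 0.08 in null and 6.26 ± 0.21 in wild-type embryos (SD, n = 3 each), 1.35-fold lower in null embryos (log2 difference -0.43, SE 0.13, 95% interval -0.74 to -0.13), which did not pass the threshold (limma adjusted p = 0.0937). It passed under none of the 12 alternatives, where the adjusted p ran from 0.0741 with the replicate block to 0.285 after centring. Among all probe sets 14.6% had every null array below every wild-type array, and 2 of the 5 determinants did.

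**Figure D2:**
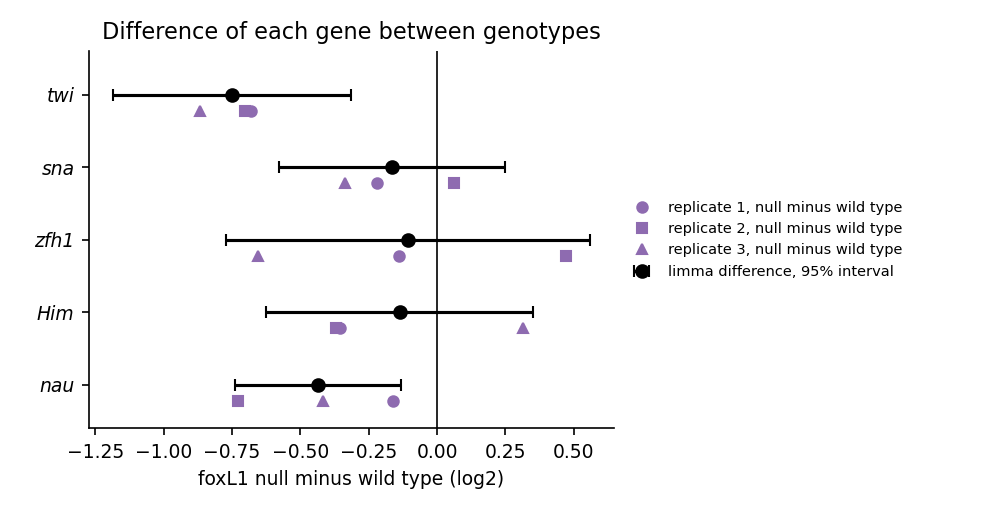
Difference of foxL1 null minus wild type (log2) for each gene, with limma's difference and 95% interval in black and, under it, the difference between arrays of the same replicate number in purple. The twi values within numbers sit between -0.87 and -0.68 and the nau values between -0.73 and -0.16, while sna, zfh1 and Him have values on both sides of 0.

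Genes around Twist and Snail in the early mesoderm were described next, from lists chosen with earlier results of these data known. Of 8 measured target genes of Twist and Dorsal in the invaginating mesoderm, 1 fell in the null embryos, 0 rose and 7 did not pass, against 4.00% of all genes called lower and 6.24% higher. The gene that fell was Cyp310a1, a cytochrome P450 gene of the ventral blastoderm, at 6.69 ± 0.40 in null and 7.81 ± 0.28 in wild-type embryos (SD, n = 3 each). The log2 difference was -1.12 (SE 0.22, limma adjusted p = 0.0230), a call lost when wild-type array 1, wild-type array 2 or null array 1 was left out (adjusted p = 0.0825, 0.0728 and 0.0752). The FGF receptor gene htl, which directs mesoderm spreading, read 7.21, 7.61 and 6.82 in null embryos and 7.47, 7.97 and 7.66 in the wild type, with overlap (difference -0.48, adjusted p = 0.245). The genes of apical constriction, fog, the GPCR gene mthl1 (mist) and T48, differed by -0.27, -0.18 and 0.13, none past the threshold. The median of the 8 was -0.31, and 3 had an unadjusted p under 0.05, against 3244 of all 11982 genes. Besides Cyp310a1 these were Mes2 (-0.35, limma adjusted p = 0.135, and 0.0389 with array weights) and PolE4 (-0.34, adjusted p = 0.221).

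Among genes that Snail keeps out of the ventral mesoderm, 2 of 5 measured fell, against 4.00% of all genes. Of the 5, 0 rose, against 6.24%, and 3 did not pass. Tom, a Bearded family inhibitor of Notch signalling, fell by 0.92 (SE 0.17, limma adjusted p = 0.0193). The neuroectodermal homeobox gene ind fell by 0.87 (SE 0.18, limma adjusted p = 0.0249). The null arrays of Tom read 10.35, 10.75 and 10.21, against 11.54, 11.43 and 11.10 in the wild type, and those of ind 5.30, 5.27 and 4.83, against 6.29, 5.91 and 5.81. Both had every null array below every wild-type array, as did 14.6% of all probe sets. Leaving out wild-type array 1, wild-type array 2 or null array 1 ended both calls, that of Tom also without null array 3 and that of ind without wild-type array 3 (adjusted p from 0.0529 to 0.0825). The E-cadherin gene shg, another known Snail target, differed by 0.30 (adjusted p = 0.302).

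None of 6 measured relatives and co-repressors of Snail and Zfh1 passed in limma's fit, with 2 at an unadjusted p under 0.05. Both of these read higher in null embryos: ebi, a co-repressor subunit, by 0.64 (SE 0.17, adjusted p = 0.0706), and CtBP, which Snail recruits, by 0.34 (SE 0.09, adjusted p = 0.0768). Both passed after another quantile normalization (adjusted p = 0.0362 for ebi and 0.0441 for CtBP), after centring (0.0330 and 0.0484) and with array weights (0.0107 and 0.0248). With the replicate block 2 passed, ebi (0.0385) and wor (0.0297), and without null array 3 ebi passed alone (0.0190). CtBP read 9.98, 10.04 and 9.91 in null embryos, against 9.62, 9.66 and 9.64 in the wild type. The snail paralogue wor, which acts in neuroblasts, differed by -0.58 (adjusted p = 0.246, and 0.0209 without null array 2) and esg by -0.22. The relative of zfh1, zfh2, read 7.16, 8.10 and 6.76 in null embryos and 6.995, 7.39 and 7.32 in the wild type. As for zfh1, array 2 was the highest and array 3 the lowest of its null arrays. Such places were common, with null array 2 the highest for 4633 and null array 3 the lowest for 5879 of all 11982 genes.

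In the list of bHLH and related genes set beside Twist, 0 of 7 measured passed, with 0 at an unadjusted p under 0.05. The 7 were da, emc, HLH54F, Hand, Fer1, Fer2 and Fer3, and their activity in mesoderm was not examined here. HLH54F, which specifies the longitudinal gut muscle precursors, differed by -0.28 (SE 0.13, limma adjusted p = 0.262). The gene of the common bHLH partner Daughterless, da, differed by -0.22 (SE 0.15, adjusted p = 0.483).

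Muscle structural genes on which Mef2 acts were near the wild-type level as a group. Of 15 measured, 0 passed in limma's fit, 0 had an unadjusted p under 0.05 and 0 passed under each of the 12 alternatives. Their median was -0.12 and they ranged from -0.39 for Mp20, an actin-binding muscle protein gene (SE 0.21, adjusted p = 0.333), to 0.32 for meso18E. Their mean signal was 10.32, 9.93 and 10.20 on the null arrays, against 10.32, 10.03 and 10.40 on the wild-type arrays. Array 2 thus had the lowest mean in each genotype, and 12 of the 15 genes were lowest on array 2 in both, against 17.6% of all genes. On the same array sna and zfh1 were highest in both genotypes, which held for 22.6% of all genes.

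**Figure D3:**
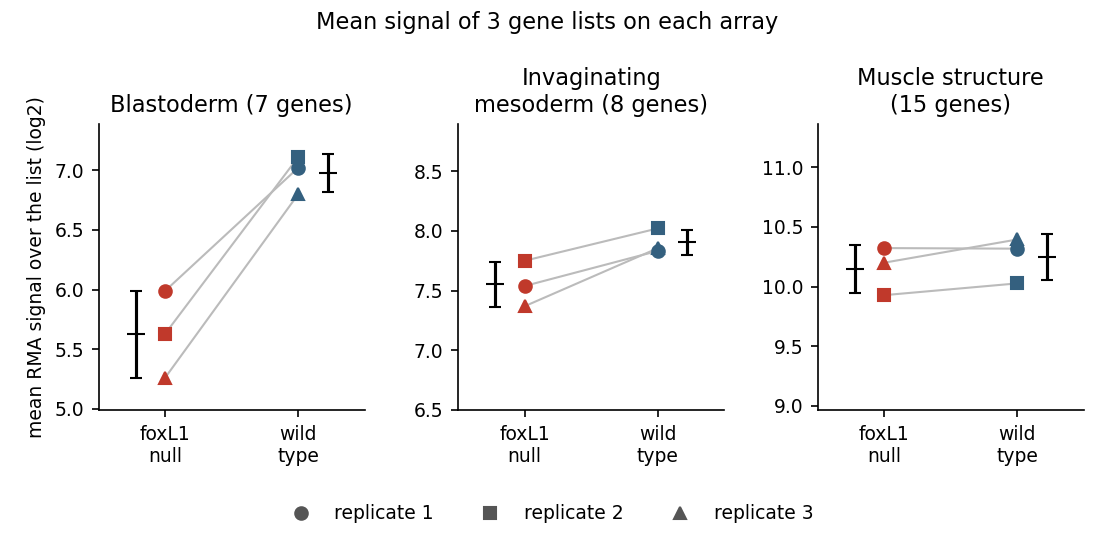
Mean RMA signal (log2) over 7 genes of the cellularising blastoderm, 8 genes of the invaginating mesoderm and 15 muscle structural genes on each of 3 foxL1 null (red, left) and 3 wild-type (blue, right) arrays, with the replicate number as the symbol, lines joining the same number, and black bars for mean ± SD. The blastoderm and invagination means lie lower on every null array, and the muscle means overlap, with array 2 the lowest in each genotype.

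Among 5 measured factors that work with or against Mef2, 0 fell, 4 did not pass and 1 rose, against 6.24% of all genes. It was nej, which encodes the histone acetyltransferase CBP, at 9.01 ± 0.28 in null and 7.87 ± 0.16 in wild-type embryos, 2.21-fold higher (SD, n = 3 each; limma adjusted p = 0.00602). This call held under all 12 alternatives (highest adjusted p 0.0265). Another nej probe set differed by 1.26 (SE 0.48, adjusted p = 0.180), with a null array 2 of 7.72 far above null arrays 1 and 3 at 5.85 and 5.67. The co-repressor gene gro, through which Him acts, differed by -0.10 (SE 0.14, adjusted p = 0.758).

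Of 7 measured genes for STAR proteins related to how and for other muscle RNA-binding proteins, 1 rose, 0 fell and 6 did not pass. Of all genes 6.24% were called higher. The STAR gene qkr54B read 5.99, 5.65 and 5.73 in null embryos, against 4.89, 5.28 and 5.01 in the wild type (limma log2 difference 0.73, SE 0.14, adjusted p = 0.0213). The call was lost when wild-type array 1, wild-type array 3 or null array 1 was left out (adjusted p = 0.0856, 0.0956 and 0.0691). Of the 7, 2 had an unadjusted p under 0.05, qkr54B and qkr58E-1. The difference of qkr58E-1 was 0.42 (limma adjusted p = 0.0891), and it passed after centring (0.0354) and with array weights (0.0471). The splicing factor gene mbl, which acts in muscle, differed by 0.21 (adjusted p = 0.436).

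Genes of the cellularising blastoderm, the stage at which twi and sna start, gave the lowest median of the lists. Of 7 measured 4 fell, against 4.00% of all genes, 0 rose and 3 did not pass, with a median of -1.36. The lipid droplet gene halo differed by -2.05 (SE 0.21, limma adjusted p = 0.00202), the mitotic inhibitor gene Z600 by -2.05 (SE 0.36, adjusted p = 0.0140) and SNCF by -2.05 (SE 0.37, adjusted p = 0.0164). The cellularisation gene bnk averaged 3.84 ± 0.17 in null and 4.84 ± 0.07 in wild-type embryos (SD, n = 3 each; adjusted p = 0.00309). Z600 lost the call without wild-type array 3 (limma adjusted p = 0.0509), and SNCF lost it without wild-type array 1 or wild-type array 2. The mean signal of the 7 genes was 5.99, 5.63 and 5.26 on the null arrays, against 7.02, 7.11 and 6.80 on the wild-type arrays. Array 3 had the lowest mean in each genotype. Of the 7 genes, 3 were lowest on array 3 in both genotypes, as were twi, sna and 19.2% of all genes. With the replicate block 6 of the 7 were called lower. The part of these genes' shift in the twi difference was not tested. Genes of cuticle formation and tanning late in embryogenesis did not pass in limma's fit, 0 of 7, with 0 at an unadjusted p under 0.05 and a median of -0.17, and the gene with the smallest p, knk, differed by -0.25 (adjusted p = 0.347).

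Several determinants are also active outside muscle, Zfh1 in hemocytes, heart and motor neurons and Snail in neural stem cells. Markers of hemocytes, heart and motor neurons are given beside them. No list of neural stem cell markers was used. Among 12 measured hemocyte markers 0 passed in limma's fit and 3 had an unadjusted p under 0.05, against 3244 of all 11982 genes. The median of these markers was -0.28. Their mean signal was 6.54 to 6.65 in null embryos and 6.80 to 6.86 in the wild type. The lowest p was that of Pxn, the peroxidasin gene, at -0.36 (SE 0.10, adjusted p = 0.0620). Another Pxn probe set, near the floor at 2.61 in null and 2.57 in wild-type embryos, differed by 0.04 (limma adjusted p = 0.909). With the replicate block 1 passed as lower, the GATA cofactor gene ush (-0.51, adjusted p = 0.0203), with array weights 3, and without null array 2 the 2 genes srp and crq (adjusted p = 0.0264 and 0.0479). The hemocyte surface genes He and eater stayed near the lower end of the scale, at 2.43 to 3.53 in null embryos and 2.44 to 3.51 in the wild type. Of 5 heart factors 1 fell, against 4.00% of all genes. It was the GATA factor gene pnr, lower by 0.83 (SE 0.18, limma adjusted p = 0.0337). This call was lost on leaving out any array but null array 2 (highest adjusted p 0.119) and on centring (0.0548). The mean of the heart list ran from 7.15 to 7.48 in null embryos and from 7.58 to 7.79 in the wild type. Motor neuron factors passed in 0 of 6, with 1 at an unadjusted p under 0.05, the homeobox gene eve (-0.30, SE 0.10, adjusted p = 0.126, and 0.0453 with array weights), and a list mean of 6.69 to 7.17 in null embryos and 6.83 to 7.22 in the wild type. The part of hemocytes, heart and motor neurons in the values of zfh1 was not tested, nor that of neural stem cells in sna.

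Markers of glia, tendon cells and differentiated neurons passed in limma's fit in 0 of 6, 0 of 5 and 0 of 6, with 1, 0 and 0 at an unadjusted p under 0.05. Their medians were -0.12, -0.14 and -0.0048, and their mean signals were 8.70 to 8.84, 8.40 to 8.68 and 7.72 to 8.10 in null embryos and 8.81 to 8.99, 8.61 to 8.77 and 7.92 to 7.99 in the wild type. The members with the smallest p were Gli, a septate junction gene of glia (-0.47, adjusted p = 0.163), slow, a tendon cell gene (-0.29, adjusted p = 0.309), and Appl, the neuronal amyloid precursor relative (-0.26, adjusted p = 0.412).

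**Figure D4:**
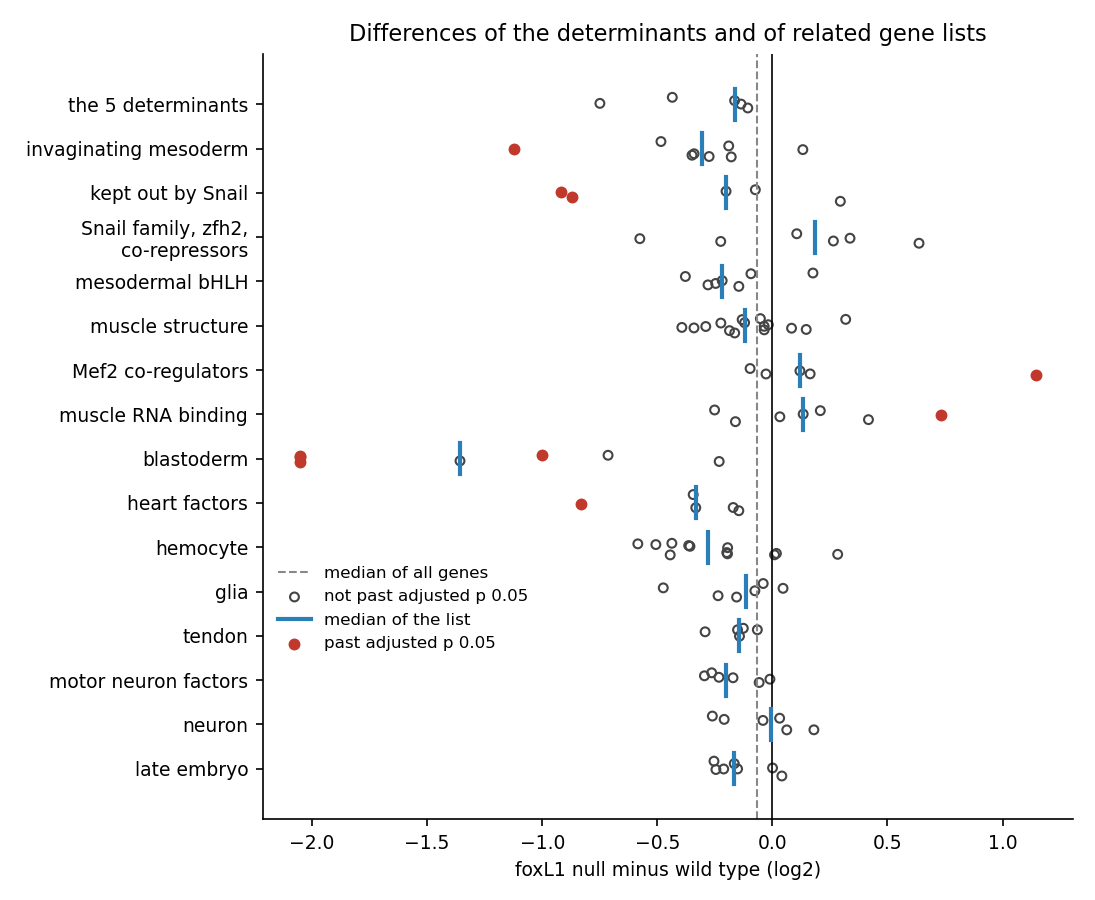
Difference of foxL1 null minus wild type (log2, horizontal axis) of each measured gene in the 5 determinants and 15 related lists (rows), with filled red points past an adjusted p of 0.05, open points not past it, a blue bar at each list's median and a dashed line at the median of all genes, -0.07. The determinants hold no red point. The blastoderm list lies furthest to the left, with a median of -1.36.

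The genes most like each determinant were sought by Pearson's r of log2 signal over the 6 arrays among all 11982 genes. These values are a description, since so many genes are compared over so few arrays that high values are found for any profile. The pattern of twi was closest to that of prd (paired), a pair-rule homeobox gene of the early embryo (r = 0.999). The null arrays of prd read 5.98, 5.53 and 4.87, against 7.16, 6.87 and 6.39 in the wild type, 2.54-fold lower in null embryos (limma adjusted p = 0.0345). The next was Dbct (r = 0.994). For sna the closest were PpY-55A (0.997), which lay near the floor at 2.65 to 3.08 on all arrays, and Kap3 (0.990). For zfh1 they were CG7906, also near the floor at 2.63 to 2.87 on all arrays, and CG18265 (0.997 each). For Him they were eIF2Bepsilon (0.997) and CG15912 (0.983), and for nau Argp (0.986) and stl (0.983).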

How the data were processed

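The authors deposited log2 expression values of 18952 probe sets on 6 arrays; the submitters' processing notes name Partek and RMA without versions. RMA sets arrays to a shared distribution and compresses changes at low signal. Genome build and detection calls are not given in the sources used here. Control probe sets (183) were left out. Probe sets naming 1 gene (13647) took current symbols from a RefSeq table (assembly Release 6 plus ISO1 MT) for 13544, and the probe set with the highest mean represented each gene; 402 named several genes and 4720 none. Null minus wild type was fitted to all probe sets with lmFit and eBayes of limma 3.58.1 (R 4.3.3), without covariates, 2-sided. On data simulated for this comparison over all 18769 probe sets, the fit called 73 of 100 probe sets changed by 1 and 95 of 100 changed by 2 on the log2 scale, with 10 false calls. With 3 arrays per genotype the smallest exact p is 0.1. The number of arrays limits precision.

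The determinants, lists and naming rule were chosen with earlier results of these data known. From each list, up to 3 members past the threshold by smallest p, or else the member with the smallest p, were named. htl, fog, mthl1, T48, Mes2, PolE4, shg, CtBP, wor, esg, zfh2, da, meso18E, gro, qkr58E-1, mbl, SNCF, ush, srp, crq, He, eater and Mlc1 were added after their values were seen. Deviations from the group mean correlated at 0.108, 0.544 and 0.224 between arrays sharing a replicate number, and a fit with the number as a block was set beside the reported unblocked fit on that basis. It comes from the data, not the labels, and null array 3 correlated more with wild-type array 1 (0.266).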

Additional observations from a re-analysis of the deposited data

How the results depend on the processing

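The count of determinants called lower, 0 as reported, was 1 (twi) with the replicate block (-0.75), after another quantile normalization (-0.71), with a trended and robust prior (-0.75) and without the lowest 25% of signal (-0.75), and 0 under the other 8 alternatives; the replicate block changed no other determinant's call. Leaving out single arrays gave -0.89 to -0.57 for twi, -0.53 to -0.32 for nau, -0.35 to -0.02 for sna, -0.46 to 0.16 for zfh1 and -0.26 to 0.05 for Him. The sign turned for Him without wild-type array 2 (0.044) or null array 1 (0.052), and for zfh1 without null array 3 (0.16) or after centring (0.012). Over all probe sets 585 were called lower and 887 higher. These counts were 1297 and 1144 with the block, 324 and 1179 after centring, 1040 and 1420 with array weights, and 213 to 568 and 428 to 1076 without single arrays. Of 106 genes in the lists 8 were called lower and 2 higher, against 4.00% and 6.24% of all genes. Leaving out single arrays gave 3 to 11 lower and 1 to 3 higher, the replicate block 12 and 3, array weights 14 and 5, another quantile normalization 8 and 4, and centring 7 and 5. The cause of these shifts was not tested. The alternative of other probe sets gave no value, since each determinant had 1. The signals of the determinants lay above the median of the arrays, with nau the lowest at 5.77 to 6.496. Whether low signal compressed their differences was not tested.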

Other observations

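The nearest protein-coding genes on either side of each determinant, taken from RefSeq's gene table (assembly Release 6 plus ISO1 MT), were measured for all 5, and 0 of the 10 passed limma's threshold. The neighbour with the largest difference was CG10232, beside nau, with 5.17, 5.20 and 5.50 in null embryos, against 5.77, 5.65 and 5.96 in the wild type (log2 difference -0.50, SE 0.13, limma adjusted p = 0.0642). Like nau, CG10232 had every null array below every wild-type array, as did 14.6% of all probe sets. The other neighbour of nau, CG10300, overlapped between the genotypes. Hesr, beside Him, lay near the floor at 2.97 to 3.19 in null embryos and 2.85 to 3.28 in the wild type, as did both neighbours of twi. Of the neighbours of zfh1, Npc2h differed by 0.35 (SE 0.14, limma adjusted p = 0.191). The other, the growth control kinase gene wts, read 7.67, 8.02 and 7.40 in null embryos and 7.75, 7.996 and 7.76 in the wild type. Its null array 2 was the highest and its null array 3 the lowest of the 6, as for zfh1. Among null arrays alone, array 2 was the highest for 4633 and array 3 the lowest for 5879 of all 11982 genes.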
